A study of Mus musculus with 32 samples.

Results

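The transcribed strand (TS) of a gene is the DNA strand that RNA polymerase II reads, and the non-transcribed strand (NTS) is its partner. Cisplatin joins neighbouring guanines on the same strand, and Damage-seq maps these adducts genome-wide by reading the position at which a DNA polymerase stops. The TS adducts of mouse liver were compared here, gene by gene, with those of kidney, lung and spleen. The liver libraries are 2 of the 8 Damage-seq libraries in a series of 32 samples, and they were set against the 6 libraries of the other organs, 2 per organ. All libraries of an organ were chosen by the organ in their label, so no measured value entered the choice.

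The mice were wild-type C57BL/6J females of 6 to 7 months. Each mouse behind the Damage-seq, XR-seq and cisplatin RNA-seq libraries received cisplatin at 10 mg per kg into the peritoneum at ZT1 and was killed at ZT5, which is 4 h later. The sample label on time after treatment reads 2 h and differs from these clock times. XR-seq, which sequences the oligomers cut out by nucleotide excision repair, and RNA-seq after cisplatin were available with 2 libraries per organ, and RNA-seq of control mice given saline served as an alternative for expression. The study calls its libraries biological replicates, and nothing in the labels ties a library to an animal, so each p-value below measures the spread between libraries. An organ is a mixture of cells, and for RNA, as for adducts, fewer cells of a type and less signal per cell cannot be told apart.

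When RNA polymerase II stalls at an adduct on the template, it recruits excision repair to that site, so the TS of an active gene is cleared faster than its NTS or the rest of the genome. A Damage-seq count taken hours after the injection therefore reflects both the adducts that formed and those already removed. Hepatocytes, the main cell of the liver, make most plasma proteins, carry the urea cycle, oxidise and synthesise fatty acids, make bile and metabolise drugs, and they express the genes for these functions at very high levels.

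The Damage-seq libraries held 1571167 to 6441367 gene-assigned reads (TS plus NTS), with 4037506 and 2440217 in the liver libraries. A TS level is given below as RPM, that is, as the TS reads of a gene per 1000000 TS plus NTS reads of its library. The median gene tested had 33 and 22 TS reads in the liver libraries, which limits what can be called for a single short gene. RNA-seq bore out the liver label, since 6 hepatocyte markers (Alb, Apoa1, Ttr, Cps1, Cyp2e1 and Serpina1c) summed to 55779 and 65671 RPKM (an RNA level per kilobase of exon and library size) in liver and to at most 188 RPKM in any other library. In liver, 6 kidney tubule markers summed to at most 17.3 RPKM and 6 lung epithelium markers to at most 65.7 RPKM. Macrophage markers (4 genes) summed to 200 and 124 RPKM in liver and to 151 and 161 RPKM in spleen. The spleen libraries also held 4 pancreas acinar markers at 775 and 582 RPKM. These sums describe the RNA-seq libraries and not the Damage-seq libraries. The kidney Damage-seq libraries stood apart from the other organs. Liver differed from kidney at 36.7% of genes (29.4% lower and 7.31% higher in liver), from lung at 9.24% (7.82% and 1.42%) and from spleen at 6.83% (6.13% and 0.695%) by the edgeR quasi-likelihood test at an adjusted p under 0.05, and counts without the kidney libraries are therefore given beside the main results.

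Across all genes, the TS took 43.9% (95% Wilson interval 43.87 to 43.97, counting error only) and 44.3% (44.22 to 44.35) of the reads in the liver libraries. It took 45.3% and 47.1% in kidney, 45.7% and 45.4% in lung, and 46.4% and 46.5% in spleen. Both liver libraries lay below the other 6. The difference between the means was -1.99 percentage points (exact permutation test, two-sided, p = 0.0357, the smallest that the 28 arrangements of 2 among 8 libraries allow).

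Gene by gene, and relative to all adducts of its library, the TS in liver was called lower more often than higher. Of 17973 genes with at least 80 TS reads in total, 2913 were lower and 433 higher in liver than in the mean of the 3 other organs, so that 18.6% of all genes were called (edgeR quasi-likelihood test, Benjamini-Hochberg adjusted p under 0.05). Genes called lower made up 16.2% and genes called higher 2.41% of those tested, and these are the backgrounds against which every list below is read. The median log2 difference was -1.01 over the genes called lower and 0.37 over the genes called higher, against -0.18 over all genes. Both liver libraries lay below all 6 others at 3356 genes (18.7%) and above all 6 at 683 genes (3.8%). Without the kidney libraries 1440 genes were lower and 177 higher. Without the first liver library these counts were 663 and 25, without the second 1759 and 221, and without the second spleen library 257 were higher.

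The balance of lower and higher calls depended on the scale. With each library scaled to its TS plus NTS total, 87.1% of calls were lower. When libraries were scaled on the TS counts alone (TMM), which moved the median of all genes from -0.18 to 0.000496, 1761 genes were lower and 1670 higher, so that 51.3% of calls were lower. DESeq2 called 761 genes lower and 1175 higher, so that 60.7% of its calls were higher. The lists below were therefore read relative to the median of all genes as well as against 0.

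The NTS of the same libraries gave few calls. Of 18781 genes tested on the NTS, 37 were lower (0.197%) and 34 higher (0.181%) in liver, or 0.378% in all (edgeR quasi-likelihood test), with 2567 genes at an unadjusted p under 0.05. Leaving out single libraries gave 2 to 99 lower and 1 to 306 higher, with the most calls without the second kidney library. Over the 2913 genes with lower TS damage, the median NTS difference was -0.07. Few calls did not mean a flat NTS, since its difference followed GC content (Spearman's rho of -0.61 across 17583 genes). The NTS median went from 0.30 in genes of up to 38% GC to -0.27 in genes over 50% GC. The TS median went from 0.21 to -0.42 in the same groups, with a rho of -0.33. A test of the TS against the NTS within each library, which cancels dose, copy number and library size, called 1865 of 17594 genes lower (10.6%) and 99 higher (0.563%) in liver, or 11.2% in all. These counts were 349 and 17 without the first liver library, 830 and 23 without the second, and 154 were higher without the first lung library. Of the genes with lower TS damage, 1554 of 2908 tested were also lower by that test (53.4%). The TS share of the reads in the median gene of this set was 25.9% in liver and 40.4% in the other organs. The strand test and the TS share reuse the TS counts by which the set was called. They describe the set and are not independent of the call.

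The single genes with the strongest evidence showed how far apart the groups were. Lrp1 (chr10:127538161-127621148, minus strand, GRCm38), the low-density lipoprotein receptor-related protein that clears chylomicron remnants, held 23.0 and 24.2 TS RPM in liver. It held 88.8 and 74.5 RPM in kidney, 57.2 and 60.3 in lung, and 53.5 and 66.5 in spleen. Both liver libraries lay below the lowest of the others, and the log2 difference was -1.49 ± 0.15 (SE, edgeR quasi-likelihood test, adjusted p = 6.18e-14). On the NTS the same gene held 61.2 and 63.9 RPM in liver and 59.8 to 95.01 RPM elsewhere, so the groups overlapped there. The TS share of Lrp1 was 27.4% in each liver library and 47.2% to 49.7% in the others, and the strand test gave a log2 difference of -1.31.

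Khk (chr5:30921431-30931248, plus strand) is the gene for ketohexokinase of fructose metabolism. Its TS held 2.97 and 1.23 RPM in liver, 10.9 and 9.42 in kidney, 9.195 and 9.75 in lung, and 6.36 and 13.1 in spleen. Both liver libraries lay below all others, with a log2 difference of -2.11 ± 0.38 (SE, edgeR quasi-likelihood test, adjusted p = 1.43e-05), and RNA stood at 436 RPKM in liver and 485 RPKM in kidney. RPKM is set here on library totals, while RNA differences are scaled by TMM, whose factors were 0.689 and 0.495 for the liver and 1.01 to 1.33 for the other libraries. With RPKM divided by these factors Khk stood at 795.2 in liver and 469.6 in kidney, so the order of the organs depended on the scale.

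Pemt (chr11:59970614-60046489, minus strand), which makes phosphatidylcholine by methylation, held 15.6 and 16.8 TS RPM in liver and 33.1 to 58.2 RPM elsewhere. Its log2 difference was -1.58 ± 0.18 (adjusted p = 8.66e-12) with an NTS difference of 0.02, and its RNA stood at 213 RPKM in liver and at most 1.14 RPKM elsewhere. Zfpm1 (chr8:122282141-122337251, plus strand), the GATA cofactor FOG1, held 9.66 and 10.7 TS RPM in liver and 24.6 to 66.8 RPM elsewhere. Its log2 difference was -2.02 ± 0.20 (adjusted p = 6.18e-14), but its NTS fell by 0.74 on the log2 scale and was called too, and the strand difference was -1.26. The other genes with the lowest p were Shb, a signalling adaptor (-1.48), Mtss1, an actin regulator (-1.31), Mgll, monoglyceride lipase (-1.28), Nr5a2, the nuclear receptor LRH-1 (-1.27), Nectin1, a cell adhesion protein (-1.45), Rhobtb1 (-1.19), the transcription factors Nfix (-1.17) and Zbtb16 (-0.99), the transporter Slc22a23 (-1.10) and Tacc2 (-1.05). All were below all 6 other libraries in both liver libraries, which the rule for naming them required.

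**Figure D1:**
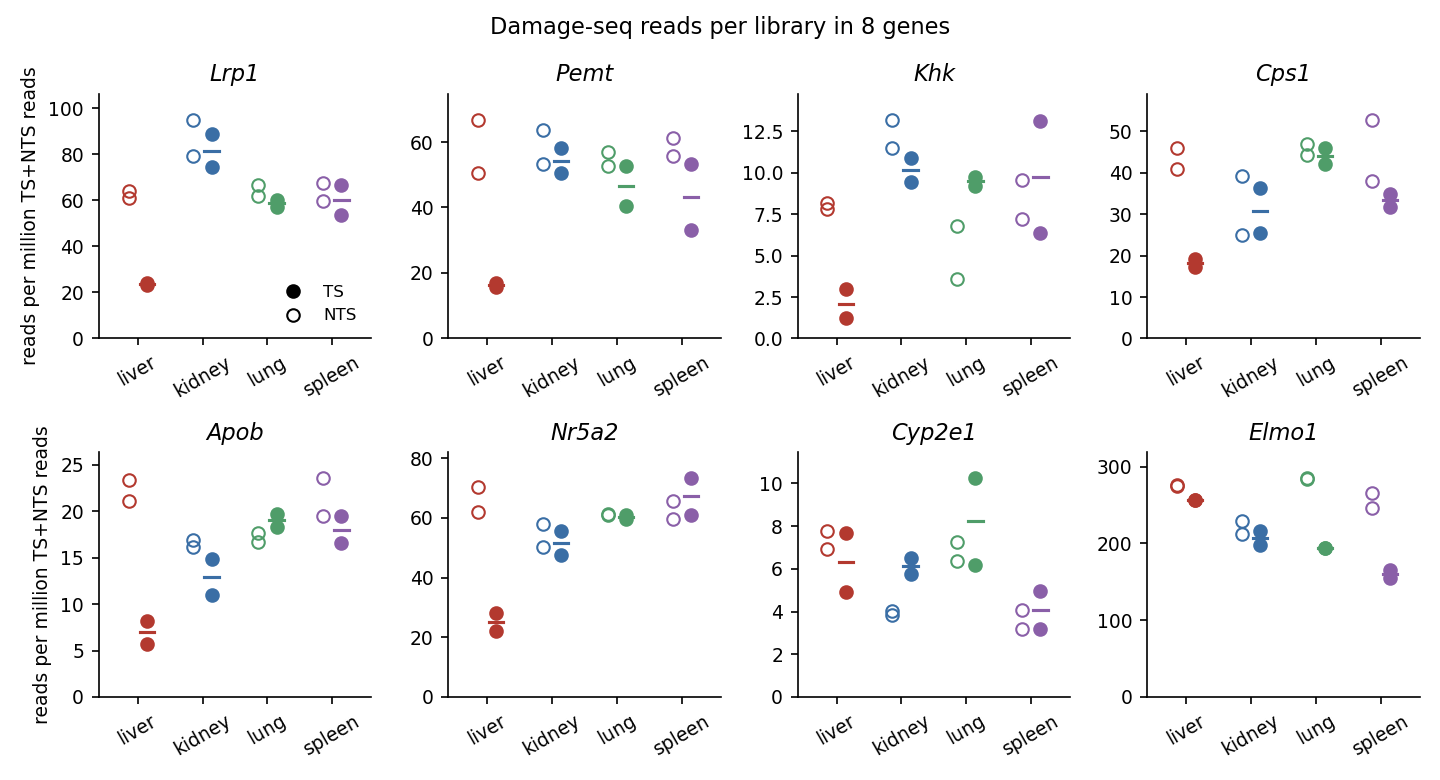
RPM (vertical) in each of the 8 Damage-seq libraries for 8 genes, with filled points for the TS, open points for the NTS, 1 colour per organ and a bar at the mean of the 2 TS values. For Lrp1, Pemt, Khk, Cps1, Apob and Nr5a2 the 2 liver TS points lie below the other 6, for Cyp2e1 they overlap and for Elmo1 they lie above.

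Members of 11 lists of hepatocyte functions were then counted. The lists were written with earlier results of these data in view, and their counts are descriptions. Together they held 374 tested genes, of which 221 (59.1%) were lower and 2 higher on the TS in liver, against the backgrounds of 16.2% and 2.41%. The median TS difference was -0.97 and the median NTS difference 0.08. On the NTS 1 of the 374 was called lower and none higher (edgeR quasi-likelihood test), and the TS was lower against the NTS in 164 and higher in 0. RNA was higher in liver for 360 of them, against 24.0% of all tested genes with an RNA test. Single list counts moved with the fit. Each is therefore followed in parentheses by the number lower without kidney, without the first liver library, without the second, with DESeq2 and with TMM on the TS counts, in that order. At an unadjusted p under 0.05, 4 were higher on the TS, 2 were higher by the strand test and 33 were higher on the NTS, and DESeq2 called no member of these lists higher on the TS other than 2 P450 genes and 1 transcription factor.

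Secreted proteins came first. Of 26 genes for plasma proteins, 16 were lower and 0 higher on the TS, with a median of -1.12 (12, 6, 8, 5 and 10 in the other fits, and 10 with GC centring, which sets each library to its median in bins of GC content). The summed TS share of the list was 33.4% (31.2 to 35.7) and 30.3% (27.6 to 33.2) in the liver libraries and 49.3% to 50.6% in the others. Gc (chr5:89417522-89457898, minus strand), the vitamin D binding protein, held 5.201 and 4.92 TS RPM in liver and 10.9 to 17.6 RPM elsewhere, without overlap (-1.37 ± 0.30, adjusted p = 0.000288, edgeR quasi-likelihood test). Trf, the iron carrier transferrin, differed by -1.41 (adjusted p = 0.000172) and Itih2, an inter-alpha-trypsin inhibitor heavy chain, by -1.34 (adjusted p = 0.00019). Alb (chr5:90460897-90476602, plus strand), albumin, had the highest RNA level of these genes, at 41291 RPKM. Its TS held 3.22 and 1.23 RPM in liver, 4.81 and 4.19 in kidney, 5.44 and 4.46 in lung, and 8.91 and 4.97 in spleen. The liver values were the lowest, but the difference of -1.13 ± 0.44 did not pass the test (adjusted p = 0.0592).

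In the coagulation and fibrinolysis list 15 of 24 genes were lower and 0 higher (median -1.05, then 11, 3, 10, 5 and 14). Plg, plasminogen, held 5.70 and 9.02 TS RPM in liver and 15.5 to 28.1 RPM elsewhere (-1.61, adjusted p = 6.98e-07). Habp2, a hyaluronan-binding protease, held 7.68 and 6.97 RPM in liver and 16.2 to 27.6 RPM elsewhere (-1.58, adjusted p = 2.79e-07). F5, coagulation factor V, held 19.1 and 16.8 RPM in liver and 29.3 to 42.1 RPM elsewhere (-1.01, adjusted p = 5.89e-06). None of the 3 overlapped between liver and the other organs. The fibrinogen genes Fga, Fgb and Fgg gave -1.21, -0.43 and -0.63 and were not called.

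Complement genes were lower in 14 of 20 cases and higher in none (median -1.27, then 9, 7, 11, 6 and 11). Hc, complement C5, held 13.6 and 17.2 TS RPM in liver, 31.7 and 33.3 in kidney, 41.3 and 38.8 in lung, and 42.01 and 39.3 in spleen (-1.31, adjusted p = 1.69e-08). Cfi, the protease factor I, differed by -1.73 (adjusted p = 1.39e-08). Masp1, a protease of the lectin pathway, held 14.6 and 17.6 RPM in liver and 30.7 to 46.6 RPM elsewhere (-1.38, adjusted p = 1.62e-09) at a liver RNA level of 3.45 RPKM, so a low TS level was found at modest RNA too. C6 and C9, parts of the membrane attack complex, gave 0.07 and 0.17 and were not called.

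Liver promoters often carry sites for HNF1, HNF4 and C/EBP factors. To place the secreted-protein genes on the genome, the 250 bases before the RefSeq start (GRCm38.p6) were read for 10845 of the 17973 genes tested, those with exactly 1 RefSeq promoter of that symbol. Each motif was searched on both strands and counted on its own, whether or not it overlapped another. The HNF1 letters, GTTAAT followed by any base and ATT, were in 0.397% of all these promoters, in 4.51% of the 133 list genes with lower TS damage and in 3.78% of all 238 list genes. The HNF4 letters CAAAGTCC were in 1.43%, 3.01% and 5.88%, the C/EBP letters TTGCNNAA in 8.29%, 17.3% and 20.6%, and the TATA box letters TATAAA in 9.03%, 13.5% and 17.2%. The GC box letters GGGCGG were in 48.5%, 32.3% and 30.3%. Outside the lists, 1591 genes with lower TS damage held the HNF1 letters in 0.314% and the HNF4 letters in 1.45%. They held the C/EBP letters in 6.66%, the TATA box letters in 5.03% and the GC box letters in 68.8%. The shares of the list genes were thus not those of genes with lower TS damage at large. A match is a description of the sequence and not a bound site. Of the 6 list genes with lower TS damage and the HNF1 letters, the 4 whose window reached at most 30 bases into the GENCODE gene are printed 5' to 3' on the gene's own strand, because they show the liver promoter letters beside the damage result, and the capitals mark the HNF1 letters or their reverse complement.
Hc: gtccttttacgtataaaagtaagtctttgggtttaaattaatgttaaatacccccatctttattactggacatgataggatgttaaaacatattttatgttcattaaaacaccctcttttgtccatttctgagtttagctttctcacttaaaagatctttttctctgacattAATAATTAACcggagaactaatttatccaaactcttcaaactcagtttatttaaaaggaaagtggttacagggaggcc
Gc: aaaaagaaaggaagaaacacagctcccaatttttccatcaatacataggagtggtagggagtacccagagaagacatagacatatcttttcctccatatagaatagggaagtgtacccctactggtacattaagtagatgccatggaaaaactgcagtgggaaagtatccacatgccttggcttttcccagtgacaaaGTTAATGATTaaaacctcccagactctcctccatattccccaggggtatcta
C4bp: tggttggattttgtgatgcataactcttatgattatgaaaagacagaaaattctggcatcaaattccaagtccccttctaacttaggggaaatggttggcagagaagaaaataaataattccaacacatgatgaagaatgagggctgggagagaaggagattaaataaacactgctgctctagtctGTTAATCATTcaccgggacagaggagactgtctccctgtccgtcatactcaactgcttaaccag
F13b: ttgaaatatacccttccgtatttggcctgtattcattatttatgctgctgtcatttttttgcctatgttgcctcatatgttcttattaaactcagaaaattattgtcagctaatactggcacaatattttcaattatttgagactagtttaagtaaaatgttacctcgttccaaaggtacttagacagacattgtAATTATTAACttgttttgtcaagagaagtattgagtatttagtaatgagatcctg

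The positions are chr2:35061413-35061662 on the minus strand for Hc (letters at -78 to -69 from the start), chr5:89457899-89458148 on the minus strand for Gc (letters at -52 to -43 from the start), chr1:130661619-130661868 on the minus strand for C4bp (letters at -64 to -55 from the start), chr1:139501457-139501706 on the plus strand for F13b (letters at -55 to -46 from the start). C4bp, the complement C4b-binding protein, differed by -1.38 on the TS (adjusted p = 0.0011) and F13b, the B subunit of coagulation factor XIII, by -1.14 (adjusted p = 0.0139), beside the values of Hc and Gc above.

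In the list of apolipoproteins and lipoprotein handling 10 of 14 genes were lower and 0 higher (median -1.17, then 8, 3, 9, 4 and 9). Apob (chr12:7977648-8016835, plus strand), the structural protein of very low-density lipoprotein, held 5.70 and 8.20 TS RPM in liver, 11.02 and 14.8 in kidney, 19.7 and 18.3 in lung, and 16.5 and 19.4 in spleen. The groups did not overlap (-1.29 ± 0.27, adjusted p = 0.000166), and the NTS difference was 0.28. Scarb1, the high-density lipoprotein receptor, differed by -1.26 (adjusted p = 2.29e-07) and Lipc, hepatic lipase, by -0.81 (adjusted p = 7.22e-08).

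Metabolic enzymes showed the same direction. In the list of urea cycle and amino acid catabolism 38 of 55 genes were lower and 0 higher (median -1.12, then 30, 20, 30, 22 and 35), and 23 were lower against each of the 3 organs separately, where 3.22% of all genes were. Cps1 (chr1:67123026-67231259, plus strand), which makes carbamoyl phosphate for the urea cycle, held 17.3 and 19.3 TS RPM in liver and 25.5 to 45.9 RPM elsewhere (-0.97 ± 0.18, adjusted p = 1.83e-05). Ass1, argininosuccinate synthase, held 11.9 and 11.5 RPM in liver and 24.8 to 37.5 RPM elsewhere (-1.36, adjusted p = 1.29e-07), with RNA of 795 RPKM in liver and 488 RPKM in kidney (1407 and 472 with TMM). Kynu, kynureninase of tryptophan breakdown, differed by -1.16 (adjusted p = 2.08e-07). Asgr1 and Asgr2, receptors for desialylated glycoproteins and not enzymes, were placed in this list and were lower as well (-1.91 and -1.68). Otc, which makes citrulline, gave -0.06 and was not called.

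In the list of gluconeogenesis, glycogen and sugar metabolism 21 of 37 genes were lower and 0 higher (median -0.91, then 16, 7, 15, 8 and 18). Pcx, pyruvate carboxylase, held 28.7 and 31.1 TS RPM in liver and 57.4 to 75.9 RPM elsewhere (-1.15, adjusted p = 2.01e-10). Aldh2, mitochondrial aldehyde dehydrogenase, held 3.22 and 3.69 RPM in liver and 6.19 to 19.9 RPM elsewhere (-1.87, adjusted p = 8.08e-06).

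In the list of fatty acid oxidation, ketogenesis and lipid synthesis 41 of 57 genes were lower and 0 higher (median -1.09, then 29, 13, 32, 17 and 32). Acacb, acetyl-CoA carboxylase 2, held 27.7 and 31.6 TS RPM in liver and 52.2 to 73.6 RPM elsewhere (-1.14, adjusted p = 3.39e-10). Ppara, the nuclear receptor that drives fatty acid oxidation, differed by -1.22 (adjusted p = 7.64e-08), and Mlxipl, the carbohydrate-responsive factor ChREBP, by -1.21 (adjusted p = 1.54e-07). Repair reads did not follow RNA in this list. XR-seq on the TS was lower in liver for 31 of its genes and higher for 21, against 34.0% and 21.4% of all genes tested, while RNA was higher for 56. On a scale set by the XR-seq TS counts alone (TMM) these XR-seq counts were 25 and 24. Every other hepatocyte list had more genes higher than lower in liver on XR-seq of the TS, scaled to library totals. Higher and lower genes numbered 25 and 0 for plasma proteins, 42 and 4 for the urea cycle list, and 26 and 6 for the sugar metabolism list.

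In the list of bile acid synthesis and transport 23 of 29 genes were lower and 0 higher (median -0.94, then 22, 10, 16, 11 and 18). Abcb11, the bile salt export pump, held 19.6 and 20.1 TS RPM in liver and 38.2 to 49.2 RPM elsewhere (-1.10, adjusted p = 1.98e-07). Abcc6, an ABC transporter of the hepatocyte, differed by -1.37 (adjusted p = 6.84e-10) and Nr1h4, the bile acid receptor FXR, by -1.22 (adjusted p = 1.27e-07). Nr1h4 RNA was 35.0 RPKM in liver and 45.5 RPKM in kidney (58.1 and 43.9 with TMM), and its TS level of 13.6 and 19.3 RPM in liver stayed below the kidney values of 30.1 and 33.5 RPM.

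In the list of liver transcription factors and nuclear receptors 17 of 24 genes were lower and 1 was higher (median -1.17, then 15, 11, 14, 11 and 15). Rxra, the partner of many nuclear receptors, held 14.6 and 20.1 TS RPM in liver and 29.3 to 72.8 RPM elsewhere (-1.42, adjusted p = 2.92e-10). Nr1i2, the drug-sensing receptor PXR, held 11.1 and 11.5 RPM in liver and 24.5 to 45.2 RPM elsewhere (-1.46, adjusted p = 1.73e-08). Hnf4a, a master factor of the hepatocyte, held 27.0 and 22.5 RPM in liver and 34.4 to 41.7 RPM elsewhere (-0.64, adjusted p = 0.00237). Its NTS difference was -0.63 and its strand difference -0.01, so in Hnf4a both strands moved alike. The antisense gene Hnf4aos overlaps it on the other strand. Tox3 was the member called higher (0.42), and it was named after its value was seen.

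Genes of drug metabolism formed the hepatocyte lists with the medians nearest to 0. Of 54 cytochrome P450 genes, 15 were lower and 1 higher (median -0.52, NTS median 0.28, then 12, 4, 7, 7 and 10). In the Cyp4f family 4 of 5 genes were lower, in Cyp2c 3 of 13, in Cyp3a 2 of 6, in Cyp2a 1 of 4 and in Cyp4a 0 of 4. Reads of these near-identical copies are hard to assign, so single values are uncertain. Cyp4f15 held 2.72 and 2.87 TS RPM in liver and 9.596 to 11.5 RPM elsewhere (-1.94 ± 0.36, adjusted p = 1.5e-05). Cyp2e1, which oxidises ethanol and paracetamol, stood at 7.68 and 4.92 RPM in liver and 3.18 to 10.2 RPM elsewhere, with full overlap (0.12 ± 0.33, adjusted p = 0.842). Its NTS difference was 0.65. Cyp4b1 was the member called higher (0.94), named after its value was seen. Por, the electron donor of the P450 enzymes, differed by -0.79 (adjusted p = 0.000504), a call that was lost without the kidney libraries.

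Among 43 conjugation enzymes 15 were lower and 0 higher (median -0.79, then 10, 2, 5, 2 and 8). Aox1, aldehyde oxidase, held 17.8 and 17.6 TS RPM in liver and 34.8 to 47.5 RPM elsewhere (-1.13, adjusted p = 3.59e-07). Ugt1a6a, a glucuronosyltransferase whose locus shares its last exons with sister genes, differed by -0.79 (adjusted p = 2.22e-05). In every scaling tried, and without either liver library, the medians of all 11 lists stayed below the median of all genes.

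**Figure D2:**
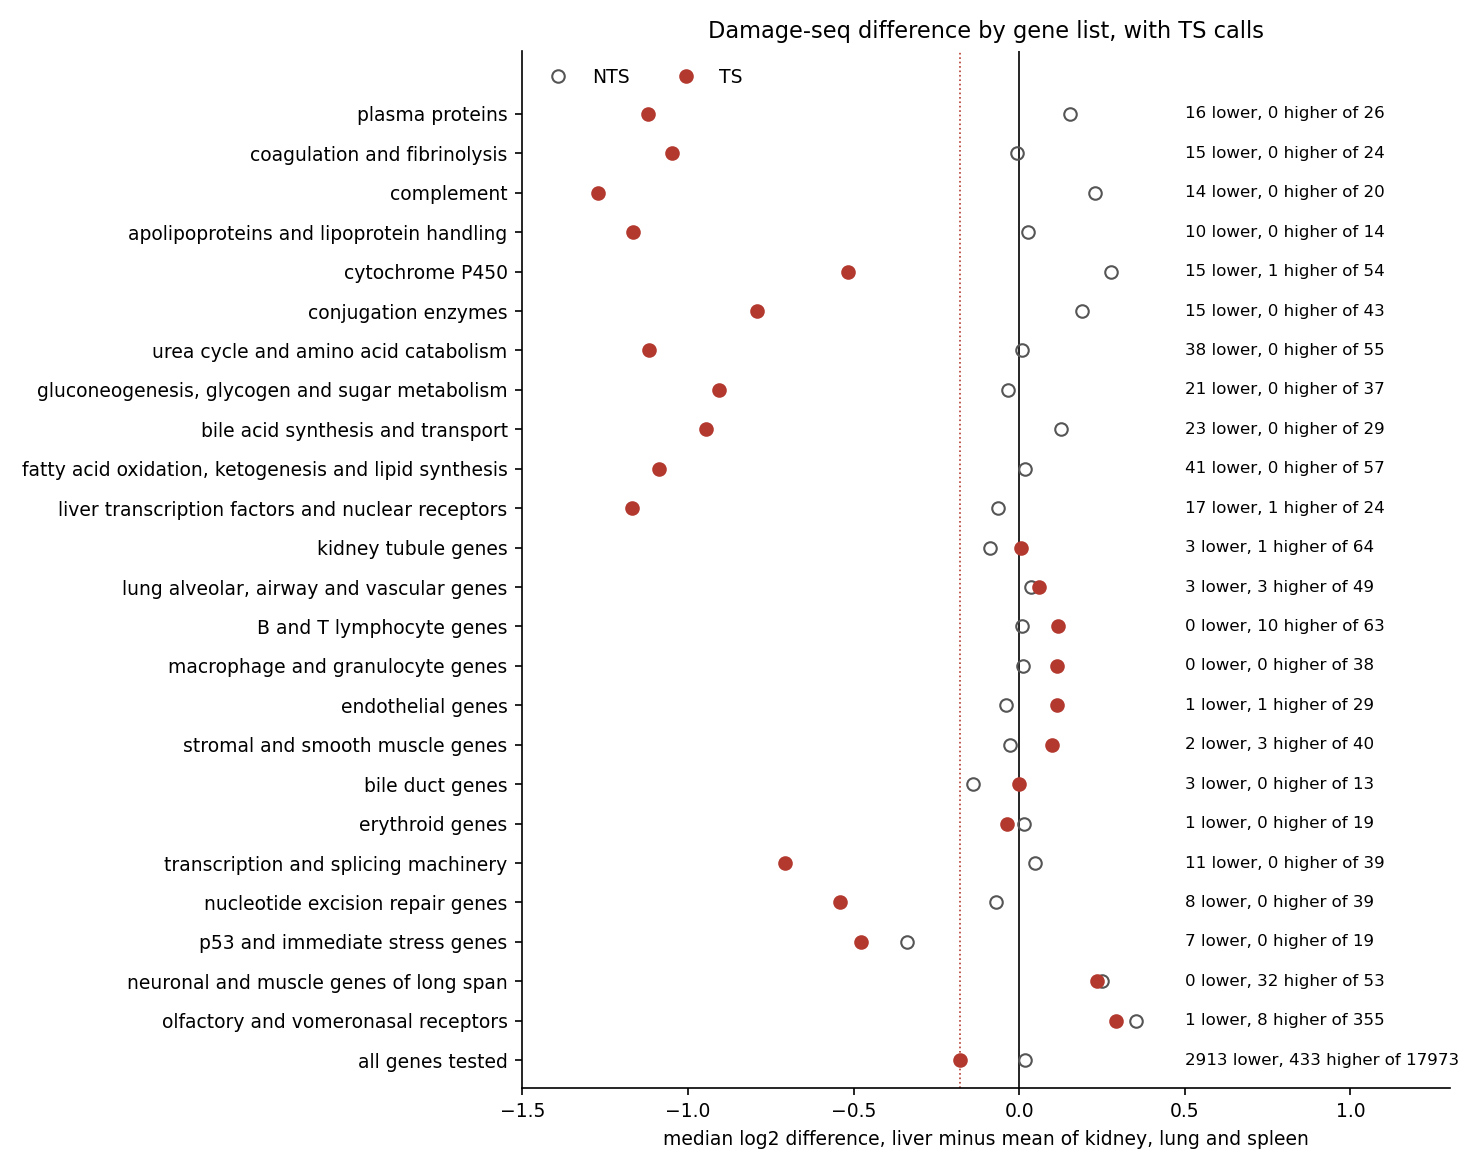
Median log2 difference of liver minus the mean of kidney, lung and spleen for each gene list with more than 4 genes tested, as filled points for the TS and open points for the NTS, with the number of TS calls at the right and a dotted line at the TS median of all genes. The 11 hepatocyte lists have TS medians of -0.52 to -1.27 and NTS medians of -0.06 to 0.28.

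Genes of the other organs and of other cells gave the contrast. Of 64 kidney tubule genes 3 were lower and 1 higher (median 0.01), and Umod, the urinary protein uromodulin, gave -0.01 on the TS (6.19 and 11.1 RPM in liver, 6.11 to 11.02 RPM elsewhere). Of 49 lung genes 3 were lower and 3 higher (median 0.06). Of 63 B and T lymphocyte genes 0 were lower and 10 higher (median 0.12). The number higher was 6 without kidney, 1 and 4 without the first and the second liver library, 12 with DESeq2, 14 with TMM on the TS counts and 17 with GC centring. The median of this list was 0.01 against kidney, 0.05 against lung and 0.24 against spleen. Its summed TS share was 49.2% and 49.4% in liver, 49.4% and 49.8% in kidney, and 49.1% and 48.2% in lung. In spleen the share was 44.4% and 43.7%, so spleen was the organ that stood apart. Ptprc, the leukocyte antigen CD45, held 51.3 and 44.7 TS RPM in liver and 27.6 to 39.6 RPM elsewhere, without overlap (0.50, adjusted p = 0.00769). Inpp5d, the phosphatase SHIP1, held 53.003 and 66.0 RPM in liver, 65.7 and 52.9 in kidney, and 31.7 to 36.3 in lung and spleen. Its difference of 0.53 passed the test (adjusted p = 0.00229) while liver and kidney overlapped. Of 38 macrophage and granulocyte genes edgeR on total reads called 0, DESeq2 called 2 higher, and edgeR called 7 higher with TMM on the TS counts and 8 with GC centring, with 3 lower and 4 higher at an unadjusted p under 0.05, and their median was 0.12. In the endothelial list 1 of 29 genes was lower and 1 higher (median 0.11), in the stromal and smooth muscle list 2 of 40 lower and 3 higher (median 0.10), in the bile duct list 3 of 13 lower (with the keratins Krt8 and Krt18, which hepatocytes also express, among them; median -0.000786) and in the erythroid list 1 of 19 lower (median -0.04). The 2 stromal genes were Ecm1 and Fn1, and Fn1, fibronectin, is also a hepatocyte product (-1.18). Of 75 cytosolic ribosomal protein genes only 4 had enough TS reads to be tested, and edgeR and DESeq2 called 0 of them, with 0 at an unadjusted p under 0.05. Of 355 olfactory and vomeronasal receptor genes, known from sensory neurons, 1 was lower and 8 higher (median 0.29 on the TS and 0.35 on the NTS). With TMM on the TS counts the number higher was 31 in the olfactory and vomeronasal list and 8 in the kidney tubule list. It was 13 in the lung list and 6 in the endothelial list, and DESeq2 called 12 lung genes higher. These fits have their own backgrounds. Of all 17973 genes 1670 were higher with TMM on the TS counts and 1175 with DESeq2, and 1373 of 17962 with GC centring. The 31 of 355 receptor genes were thus near the share of all genes. RNA was not lower in liver in all of these lists. It was lower for 61 of the 63 lymphocyte genes and higher for 1. RNA was higher in liver for 18 of the 38 macrophage and granulocyte genes and lower for 6. In the endothelial list RNA was higher for 11 of 29 genes and lower for 12.

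Housekeeping, excision repair and stress groups had medians between these extremes, and their calls were few in most other fits. Of 39 genes of the transcription and splicing machinery 11 were lower (median -0.71, then 2, 2, 3, 0 and 3). Gtf2b, the general factor TFIIB, held 1.24 and 0.41 TS RPM in liver and 3.49 to 5.09 RPM elsewhere (-2.25, adjusted p = 0.00275). Polr2a, the largest subunit of RNA polymerase II, gave -0.86 and did not pass the test (adjusted p = 0.0509). Of 39 nucleotide excision repair genes 8 were lower (median -0.54, then 0, 0, 2, 0 and 0), with 14 lower at an unadjusted p under 0.05 in edgeR with all libraries. These 8 made up 20.5% of the list, near the 16.2% of all genes. Among the 8 were Ddb2, the damage sensor XPE (-0.91), Ercc4, the nuclease XPF (-0.93), and Cul4a, the ubiquitin ligase scaffold (-0.89). Of 19 p53 and immediate stress genes 7 were lower (median -0.48, then 2, 2, 3, 1 and 6). Per2, a clock repressor, held 10.7 and 9.84 RPM in liver and 17.2 to 40.1 RPM elsewhere (-1.36, adjusted p = 7.32e-07), and its NTS was called lower as well.

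Genes with relatively more TS adducts in liver were longer and poorer in GC. The 433 genes had a median length of 187 kb and 39.2% GC, against 25.3 kb and 45.2% for all genes tested. Genes called lower had 36.2 kb and 47.0%, so genes called in either direction were longer than those tested. The NTS of the 433 genes was higher too in the median (0.25), and the strand test called 50 of 432 higher (11.6%). RNA was lower in liver for 217 of the 296 with an RNA test (73.3%), against 34.2% of all genes. Of 53 neuronal and muscle genes of long span, which are known mainly from other tissues, 32 were higher and 0 lower. Their TS median was 0.23 and their NTS median 0.25, the strand test (edgeR) called 0 with 1 lower at an unadjusted p under 0.05, and the number higher was 1 without kidney, 0 and 27 without the first and the second liver library, 50 with DESeq2, 51 with TMM on the TS counts and 9 with TMM on the NTS counts. Grik2, a glutamate receptor subunit, held 280 and 236 TS RPM in liver and 135 to 241 RPM elsewhere, with overlap (0.37, NTS 0.40). For these long genes both strands moved alike.

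Only 7 genes were higher in liver than in each of the 3 organs separately (0.0389%) and 579 were lower (3.22%), or 3.26% of genes in all. Elmo1 (chr13:20090596-20608353, plus strand), an engulfment and migration protein of leukocytes, held 256 and 256 TS RPM in liver, 198 and 216 in kidney, 194 and 194 in lung, and 155 and 166 in spleen. The liver libraries lay above all others (0.46 ± 0.09, adjusted p = 2.31e-05), and the NTS difference was 0.13. Its TS share was 48.1% and 48.2% in liver, 48.4% and 48.6% in kidney, 40.5% and 40.6% in lung, and 38.7% and 38.4% in spleen. Elmo1 RNA stood at 0.07 RPKM in liver, 0.19 in kidney, 0.85 in lung and 7.72 in spleen, so the TS share was nearest to even in the organs with the least RNA. Tex11, a meiosis gene on the X chromosome, was higher on the TS by 0.51 with 0.49 on the NTS. Wipf1, an actin regulator of blood cells, was higher by 0.64 with 0.03 on the NTS.

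The TS difference went down as the RNA difference went up, and the NTS difference stayed near 0. Genes were grouped by the RNA-seq log2 difference of liver minus the other organs. The median TS difference was 0.09 below -4 (1271 genes), 0.08 from -4 to -2, -0.05 from -2 to -1, -0.48 from -1 to 1 (6555 genes), -0.68 from 1 to 2, -0.79 from 2 to 4, -0.85 from 4 to 6 and -0.87 above 6 (404 genes). The median NTS difference stayed between -0.04 and 0.09 in all 8 groups. Across 14443 genes, which share libraries and depth and are not independent, the TS and RNA differences correlated with Pearson's r of -0.45 and Spearman's rho of -0.55, and the NTS and RNA differences with -0.02 and -0.04. With XR-seq on the TS the correlation of the TS difference was -0.15.

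Of 3469 genes with higher RNA in liver, 1497 had lower TS damage (43.2%). Of 4945 genes with lower RNA in liver, 316 had lower TS damage (6.39%) and 217 had higher (4.39%). Of 6029 genes with no RNA call, 1081 had lower TS damage (17.9%), with a median of -0.34.

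**Figure D3:**
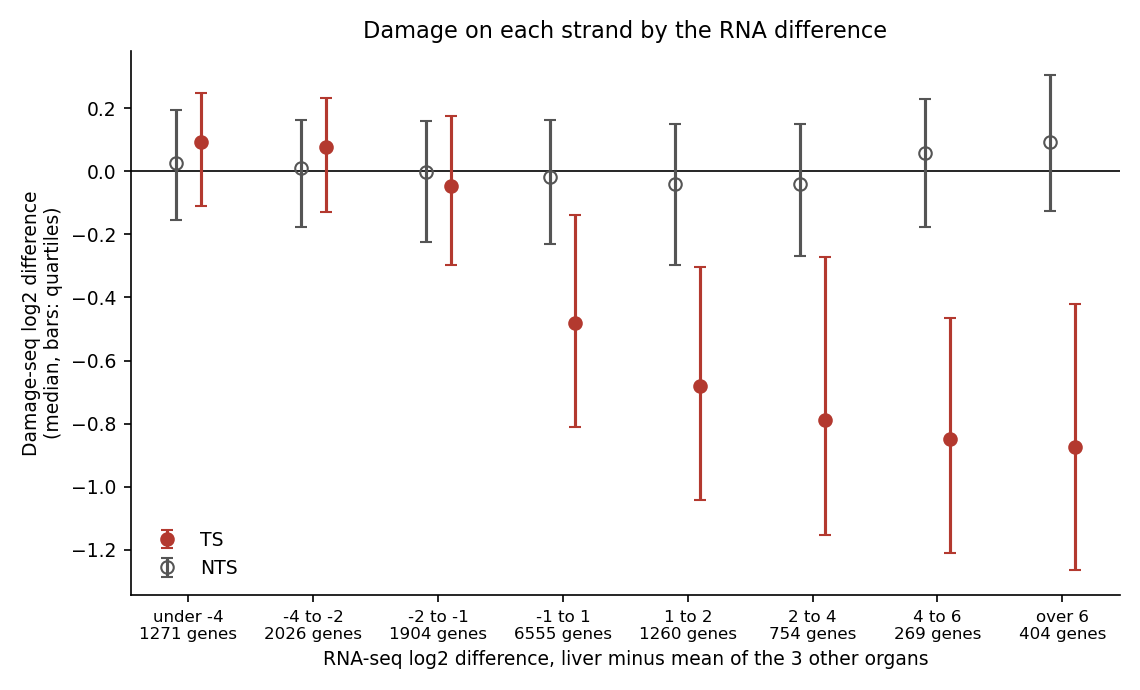
Log2 difference of liver minus the other organs on the TS and on the NTS (vertical) in 8 groups of genes ordered by their RNA-seq log2 difference (horizontal), as medians with bars for the quartiles. The TS median goes from 0.09 to -0.87 while the NTS median stays near 0.

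The TS share was then read by expression within each organ. Autosomal genes at up to 0.01 RPKM in their own organ had a TS share of 49.6% and 49.8% in liver and 49.7% to 50.5% elsewhere, so silent genes were even in all organs. At 1 to 10 RPKM the share was 34.8% and 35.6% in liver and 42.8% to 45.7% elsewhere. At 10 to 100 RPKM it was 29.0% (28.8 to 29.2) and 29.8% (29.56 to 30.05) in liver and 37.0% to 41.5% elsewhere, and at 100 to 1000 RPKM 30.1% and 31.1% against 35.6% to 40.5%. In each of these 3 ranges both liver libraries lay below the other 6. Since the TMM factors of the liver RNA-seq libraries lay below those of the other organs, an equal RPKM was not an equal RNA level on the TMM scale. With RPKM divided by the TMM factors, a choice made after seeing the data, the share was 36.7% and 37.4% in liver and 42.6% to 45.6% elsewhere at 1 to 10, 30.3% and 31.2% against 36.8% to 41.5% at 10 to 100, and 28.5% and 29.1% against 35.6% to 40.5% at 100 to 1000. Per 1000 GG sites on the strand, the median gene at 10 to 100 RPKM in liver held 3.21 TS RPM in liver and 6.09 in the other organs, and the median gene at up to 0.01 RPKM held 9.40 and 8.94.

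**Figure D4:**
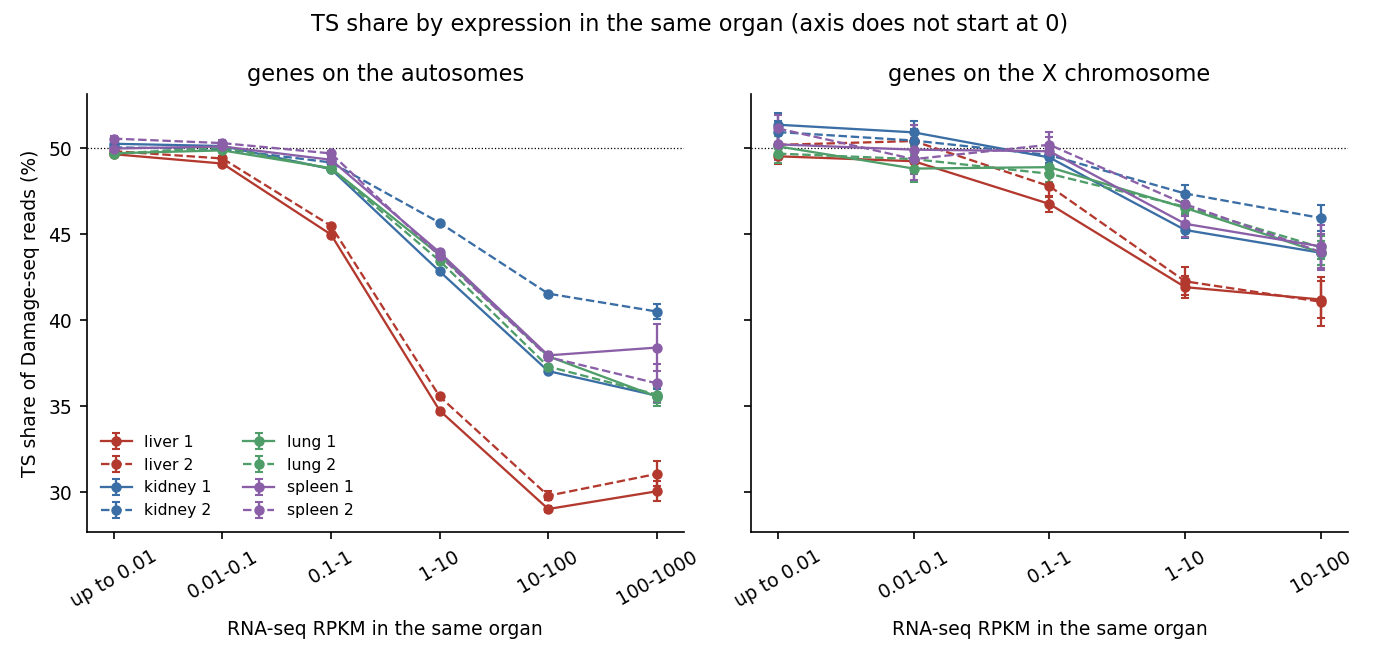
TS share of Damage-seq reads in percent (vertical) for genes on the autosomes and on the X chromosome, grouped by their RNA level in the same organ in RPKM (horizontal), 1 line per library with 95% Wilson intervals. The vertical axis does not start at 0, and on the autosomes the 2 liver lines fall to 29.0% and 29.8% at 10 to 100 RPKM, and the other 6 stay at 37.0% to 41.5%.

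Few genes on the X chromosome had lower TS damage in liver. Female mice carry an active and a silenced copy of the X chromosome, and reads of these copies cannot be told apart here. The chromosome was singled out after its values were seen. Of 556 X-linked genes tested, 3 were lower (0.54%) and 35 higher (6.29%). The NTS of X-linked genes had a median difference of 0.20, and their TS had 0.16. The strand test, with a median of -0.05 for X-linked genes, called 6 of 551 lower and 0 higher. None of the 35 genes called higher on the TS was thus called higher by the strand test. On simulated counts that test called 44% of genes raised 2-fold, so a missing call does not show that both strands moved alike. On autosomes 2910 of 17405 genes were lower on the TS (16.7%), with a range of 12.2% to 20.1% over the 19 autosomes. Among genes whose RNA was higher in liver by more than 1 on the log2 scale, 1 of 50 on the X chromosome and 1168 of 2637 on autosomes had lower TS damage. The median TS difference of these genes was -0.03 on the X chromosome and -0.76 on autosomes, and the median strand difference was -0.18 and -0.73, with -0.58 to -0.86 over single autosomes. X-linked genes at 10 to 100 RPKM had a TS share of 41.2% and 41.1% in liver and 43.9% to 45.9% elsewhere.

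Hepatocyte genes on the X chromosome gave examples. Otc held 28.2 and 22.5 TS RPM in liver, 18.5 and 25.5 in kidney, 29.7 and 32.2 in lung, and 32.5 and 25.8 in spleen. The groups overlapped although Otc RNA stood at 114 RPKM in liver and at most 0.24 RPKM elsewhere. F9, coagulation factor IX, gave -0.23 on the TS at 76.4 RPKM and Maob, monoamine oxidase B, -0.08 at 101.5 RPKM, and neither was called. Rgn, regucalcin, gave -0.94 at 822 RPKM and did not pass the test (adjusted p = 0.14, edgeR quasi-likelihood test).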

How the data were processed

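Damage-seq, XR-seq and RNA-seq libraries were made from 4 organs with 2 libraries each. According to the labels and the study's methods, the authors trimmed or filtered Damage-seq and XR-seq reads with cutadapt, aligned them with BWA to mm10, removed duplicates with Picard, kept reads of mapping quality over 20 (for Damage-seq with GG 1 to 2 bases before the read start) and counted reads per gene and strand, and RNA-seq reads were aligned with STAR and counted with featureCounts. Versions were not given in the sources used here. The files deposited by the authors hold raw counts per gene, and 1 row without a gene name was dropped from each file.

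From these counts, genes with at least 80 reads over the 8 libraries of a measure were fitted with edgeR 4.0.16 (glmQLFit and glmQLFTest, R 4.3.3) with a mean per organ and the contrast of liver minus the mean of the other organs, which left 4 residual degrees of freedom. The library size of Damage-seq and XR-seq was the TS plus NTS total, and RNA-seq was scaled by TMM. TS and NTS were compared in a fit of strand within organ with a term for each library. P-values were adjusted by Benjamini-Hochberg over all genes tested, and called means an adjusted p under 0.05. Errors of log2 differences are standard errors derived from the F statistic. Positions, lengths and exon lengths for RPKM came from GENCODE M21 (GRCm38, the assembly of mm10), in which 25040 of 25058 genes were found. Alternatives included DESeq2 1.42.0, TMM, other filters and samples, and centring in 20 bins of GC content and leaving out kidney, which were both chosen after seeing the data. On simulated TS counts the fit called 68% of genes lowered 4-fold and 39% of genes lowered 2-fold. Intervals are 95% Wilson intervals and cover counting error only.

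The genes named are the 15 called lower and 10 called higher with the smallest p and no overlap between liver and the other libraries, up to 3 called genes per list, and 10 genes listed by name such as Alb and Umod (97 in all). The members and the 25 gene lists were chosen with earlier results of these data known. Genes named for another reason are said to be so or serve as list examples. Sequences are from RefSeq (GRCm38.p6). A few genes that the rule names are not reported here.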

Additional observations from a re-analysis of the deposited data

Results flagged for a closer look

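The strand by organ term set the TS against the NTS in liver and in the other organs. It called a lower TS in liver at 1865 genes and a higher TS at 99 genes (edgeR quasi-likelihood test), and these are differences between organs in a within-library contrast. The TS share of the whole library differed between liver and the other 6 libraries by -1.99 percentage points (exact permutation test, p = 0.0357, the smallest of 28 arrangements).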

How the results depend on the processing

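The TS counts, 2913 lower and 433 higher, depended on the scale, the test and the samples. They were 1761 and 1670 with TMM on the TS counts, 761 and 1175 with DESeq2, 1773 and 1373 with libraries centred in 20 bins of GC content, 1440 and 177 without kidney, 765 and 4 with the other 6 libraries as 1 group, and 1122 and 5 against a log2 fold change of 0.4. Higher calls alone moved to 706 without spleen, 243 with TMM on the NTS counts and 116 for genes under 100 kb. Leaving out single libraries gave 663 to 3030 lower and 25 to 599 higher for the TS, 349 to 2129 and 17 to 154 for the TS against the NTS, and 2 to 99 and 1 to 306 for the NTS. The NTS counts were 18 and 5 with TMM, 2 and 0 with DESeq2 (37 and 34 in edgeR), 18 and 5 with the replicate block, 2 and 1 without kidney, 474 and 332 without spleen, and 8 and 2 with GC centring. Against single organs, TMM gave 3271 lower and 2835 higher for kidney, 871 and 494 for lung and 650 and 257 for spleen, and DESeq2 gave 1524 and 2052 for kidney, 317 lower for lung and 311 lower for spleen. RNA-seq gave 10287 lower and 1922 higher on library totals without TMM. Replicate numbers did not pair the Damage-seq libraries (correlations of -0.08 to 0.08 on the TS), and the replicate block gave 2808 and 389 on the TS. Cyp2e1, not called, turned to -0.13 without spleen, -0.0046 with 1 group of 6, and to -0.28 to 0.36 without either liver library. Umod, not called, turned to 0.16 with TMM, 0.20 with DESeq2, 0.015 without kidney, 0.050 without spleen, 0.022 with 1 group of 6, 0.17 with GC centring, and to between -0.43 and 0.41 when single libraries were left out. Of 69 named genes called lower, 45 kept their call in every alternative they could be tested in, Lrp1, Khk, Pemt, Gc, Plg, Hc, Cps1 and Abcb11 among them, and of 23 called higher 0 did. Many named calls rested on both liver libraries being present. Apob, Itih2 and Ptprc were among the many no longer called without the first liver library. Trf, Hnf4a and Por were among those no longer called without the second. The causes were not tested. List counts moved by over 1.5 times in many fits, as given with each list. At a median of 33 and 22 TS reads per gene in liver, short genes such as those for ribosomal proteins were below what could be tested.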

Other observations

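Lower TS damage was also found in genes whose RNA was lower in liver. There were 316 such genes, with a median TS difference of -0.75, a median NTS difference of -0.13 and a median RNA difference of -0.98. Their median RNA level was 1.83 RPKM in liver and 8.19 RPKM in the other organs, and 136 of the 316 were lower on the TS against the NTS. Examples chosen after their values were seen were Myh9, the heavy chain of non-muscle myosin, and Dnm2, the membrane-fission protein dynamin 2. Myh9 held 10.4 and 12.7 TS RPM in liver, 45.8 and 60.2 in kidney, 20.3 and 25.6 in lung, and 16.5 and 23.5 in spleen (-1.36). Both liver libraries were below all others, and kidney was far above lung and spleen. Dnm2 held 12.6 and 11.1 RPM in liver and 15.9 to 57.6 RPM elsewhere (-1.25).

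Some genes called on the NTS faced another gene. Of the 37 genes with a lower NTS in liver, 20 overlapped a gene on the opposite strand, and in 14 of them that gene was itself called lower on its own TS, which is the same DNA strand. Of all 18769 genes tested on the NTS with a position, 27.0% overlapped an opposite gene and 3.97% an opposite gene called lower on its TS. Adap2os with Adap2, Gpr17 with Lims2, and Lmtk3 with Sult2b1 were such pairs. Of the 34 genes with a higher NTS, 8 overlapped an opposite gene and 0 of these were called higher on its own TS (edgeR).

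Among the 404 genes with an RNA difference above 6, the share with lower TS damage changed with the level of RNA in liver. It was 5.56% up to 1 RPKM (18 genes), 28.4% at 1 to 10, 55.0% at 10 to 100, 60.4% at 100 to 1000 and 36.4% above 1000 RPKM (22 genes), where the median gene had 151.5 TS reads over the 8 libraries. The median TS difference above 1000 RPKM was -1.06, against -0.98 at 100 to 1000 RPKM. The share with lower TS damage among the 404 genes also changed with TS reads over the 8 libraries. It was 26.9% up to 200 reads and 64.4% above 800, while the median TS difference was -1.04 and -0.71. By GC content the share was 29.3% up to 40% GC and 64.7% above 48%. These shares are descriptions, and whether read number or GC content accounts for them was not tested.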
